A study of Mus musculus with 15 samples.

Results

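The comparison described here set rectal GPR15L against its placebo in stool taken after acute colitis. It used 8 of the 15 stool libraries of the study, chosen by their labels: 4 from mice given GPR15L (libraries 8 to 11) and 4 from mice given PBS (libraries 12 to 15). All mice were knockouts, in both arms alike. The series text calls them littermates deficient in Gpr15l, the gene of the peptide, while the sample titles read Gpr15-/-, the receptor, so whether the controls lacked the endogenous peptide or its receptor is not settled by the labels. All had been through dextran sulfate sodium (DSS) colitis. Recombinant human GPR15L, or sterile phosphate-buffered saline as placebo, was given once a day from day 3 to day 9. A further library, number 7, carries the title of a PBS mouse after DSS but a library name from the run taken before DSS, and its values are given beside the results without entering them. Libraries 1 to 3 (GPR15L arm) and 4 to 6 (PBS arm), taken before DSS, enter the fit that gives the scaling and the spread between libraries, and show where a bacterium had been detected earlier. The labels give neither the age of the mice nor the cage of any library.

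GPR15L is a small secreted peptide of barrier epithelia, known as the ligand of the receptor GPR15, which guides T cells to the colon, and also described as an antimicrobial peptide in culture. DSS is a sulfated polysaccharide that injures the colonic epithelium and thins the mucus layer, and the bacteria of inflamed stool differ from those of healthy stool in most mouse colonies. Mouse stool is dominated by Bacteroidales such as Bacteroides and Muribaculaceae, which break down complex carbohydrates, and by Clostridia such as Lachnospiraceae and Oscillospiraceae, among which are many butyrate producers. Smaller populations live in or on the mucus, among them Akkermansia, Mucispirillum and Helicobacter. Mice of 1 cage eat each other's stool and share strains.

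What was counted is the amplicon sequence variant (ASV), a distinct sequence of the V4 region of the 16S ribosomal RNA gene, which need not correspond to exactly 1 strain. ASVs are numbered by their total count over the 15 libraries. Total counts were 53417 to 144379 in the GPR15L libraries and 50041 to 67860 in the PBS libraries. A share of 1% in the shallowest of these has a 95% Wilson interval of 0.916% to 1.09%, and a share of 0.1% one of 0.0758% to 0.132%, for counting error only. A count of 0 in all 4 libraries allows a share of up to 0.000912% with GPR15L and 0.00128% with PBS (3 counts of the summed total), and folds against an arm at 0 are lower bounds relative to these limits. Values are shares of the counts of a library, so a higher share of one bacterium cannot be told apart from less of the others. Mitochondrial sequence, which is no stool bacterium, made up 0.470% ± 0.198 (SD, n = 4) with GPR15L and 0.310% ± 0.276 (n = 4) with PBS. Cage and arm cannot be told apart. The p-values measure the spread between libraries, which are not independent where mice were caged together.

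After DSS most of the larger families overlapped in share between the arms, while part of the ASVs within them differed. The 63 ASVs found in all 8 libraries held a mean of 80.5% of counts with GPR15L and 64.1% with PBS. Of the 282 ASVs tested, 30 were higher and 49 lower with GPR15L, 28.0% in all (10.6% higher and 17.4% lower; edgeR's quasi-likelihood test, Benjamini-Hochberg adjusted p under 0.05, here called past the threshold). Fitted without the libraries before DSS, the 8 libraries alone gave 109 ASVs, 52 higher and 57 lower, so the size of the excess of lower calls depends on the fit. Leaving out a PBS library (12, 13, 14 or 15) reduced the higher ones to 17, 18, 15 and 15. Bray-Curtis distance, which compares 2 libraries share by share from 0 (identical) to 1 (nothing in common), averaged 0.513 between the arms at the level of ASVs, against 0.371 within GPR15L and 0.336 within PBS. The arm accounted for an R2 of 0.440 of the squared distances (exact permutation p = 0.0286, n = 4 each, the lowest this design allows, and 0.143 when adjusted over 5 ranks). Of the 16 pairs between the arms, 7 lay farther apart than every pair within an arm. When the counts were summed into genera, families, orders and phyla, the R2 was 0.201, 0.167, 0.154 and 0.119 (exact permutation p = 0.257, 0.343, 0.343 and 0.429, n = 4 each, all 0.429 when adjusted). At the level of families the mean distance between the arms was 0.307, beside 0.316 within GPR15L and 0.267 within PBS. Distances that weight rare families more gave larger values: the R2 between the arms at the family level was 0.592 with Aitchison distance and 0.637 with Jaccard distance on presence (exact permutation p = 0.0286 for each, n = 4 each).

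**Figure D1:**
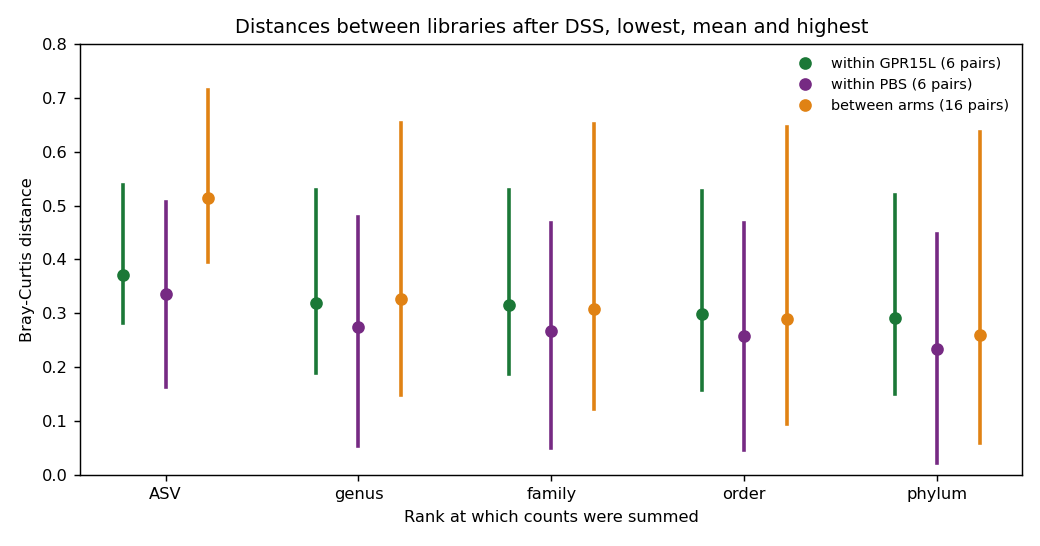
Bray-Curtis distance (vertical axis, 0 to 0.8) between pairs of libraries after DSS, with counts summed at 5 ranks (horizontal axis). Lines run from the lowest to the highest pair and points mark the mean, for pairs within GPR15L, within PBS and between the arms. The mean between the arms is 0.513 for ASVs and falls to 0.307 for families and 0.260 for phyla, where it lies among the means within the arms.

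The abundant phyla did not pass the threshold. Bacteroidota made up 54.3%, 29.9%, 75.5% and 66.3% of counts in libraries 8 to 11 and 58.9%, 57.6%, 19.1% and 56.2% in libraries 12 to 15. Bacillota, the phylum of the Clostridia and Bacilli, made up 26.8%, 36.9%, 9.20% and 11.1% with GPR15L and 24.0%, 25.5%, 65.1% and 28.3% with PBS. In both phyla the arms overlapped, and library 14 stood apart within PBS, rich in Bacillota and poor in Bacteroidota. The log2 ratio of Bacillota to Bacteroidota averaged -1.58 ± 1.53 (SD, n = 4) with GPR15L and -0.42 ± 1.47 (n = 4) with PBS, a difference of -1.16 (two-sided exact permutation p = 0.343). The fitted log2 fold change of Bacillota was 0.17 and took the opposite sign with TMM (-0.15), the factors of the ASV table (-0.53) and total counts alone (-0.77), with no call under any of them. Campylobacterota (7.68%, 14.4%, 5.06% and 12.9% against 11.8%, 11.5%, 6.77% and 10.0%) and Deferribacterota (7.68%, 15.2%, 0.797% and 6.00% against 3.52%, 3.28%, 5.75% and 4.24%), which here are Helicobacter and Mucispirillum and their kin, overlapped between the arms as well.

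Of the 11 phyla tested, 2 passed (18.2%), both lower with GPR15L (18.2%) and none higher (0.0%), and both were rare. Spirochaetota, which here was the family Brachyspiraceae of spiral-shaped anaerobes, was at 0.00623%, 0, 0 and 0 in libraries 8 to 11 and at 0, 0.350%, 0.251% and 0.113% in libraries 12 to 15 (edgeR adjusted p = 0.0325 for a log2 fold change of -5.97 ± 2.06 SE). The arms overlapped at 0, since library 12 had none, and the call ended without library 9, 10, 11, 13 or 14 (edgeR adjusted p = 0.0878, 0.0840, 0.0818, 0.0862 and 0.101). Patescibacteria, tiny bacteria that live attached to other bacteria, had no count with GPR15L and were at 0.0697%, 0.0380%, 0.0752% and 0.0399% with PBS (edgeR adjusted p = 0.00963), named here after their values were seen because they lie under 0.1%. Pseudomonadota made up 2.54%, 1.96%, 8.22% and 2.98% with GPR15L and 1.05%, 1.35%, 1.07% and 0.617% with PBS. Every GPR15L library thus held more than every PBS library, but the phylum did not pass (edgeR adjusted p = 0.0757 for a log2 fold change of 2.19 ± 0.91 SE), and its mean with GPR15L was 3.93% with and 2.49% without library 10. This phylum sum includes the mitochondrial sequence. That made up 0.635%, 0.599%, 0.447% and 0.198% of counts with GPR15L and 0.190%, 0.160%, 0.724% and 0.166% with PBS. The median log2 fold change over all 11 phyla was 0.96, and 0.24 when scaled by total counts alone, so differences at this rank depend on the scaling. The scaling factor of library 14 at this rank was 4.45. The other compared libraries had factors from 0.545 (library 9) to 1.05 (library 10). Counts of Eukaryota without a phylum are 1 of the 11.

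Among 27 orders, 8 passed (29.6%), 2 higher (7.41%) and 6 lower (22.2%), and among 38 families, 8 passed (21.1%), 2 higher (5.26%) and 6 lower (15.8%). Families in which all 4 GPR15L libraries lay above all 4 PBS libraries numbered 2 (5.26%), and those in which all lay below numbered 8 (21.1%). The calls at both ranks name nearly the same bacteria, since most of these orders hold 1 family here. They were sensitive to single libraries: the number of families past the threshold fell to 1 when library 11 or 14 was left out, 2 for library 9, 3 for library 10 or 15, and 5 for library 8 or 13. The number of orders was 4 without library 9, 10, 11 or 13.

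**Figure D2:**
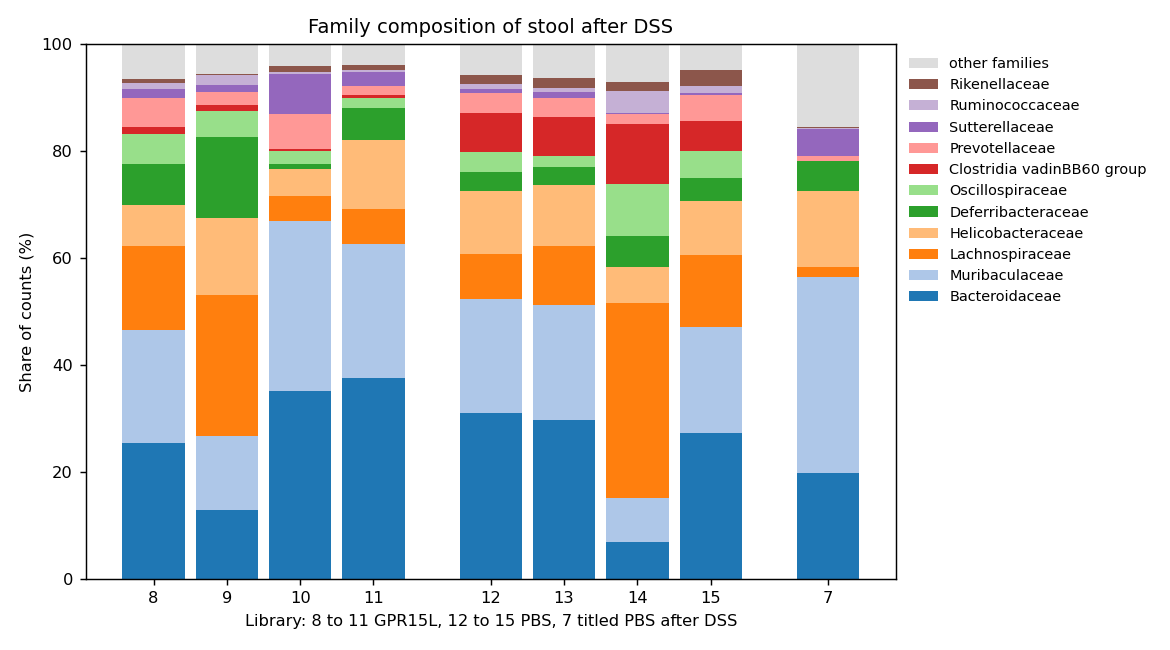
Share of counts in percent (vertical axis, 0 to 100) of the 11 families with the highest mean share over the 8 libraries, with all others in grey, in libraries 8 to 11 (GPR15L), 12 to 15 (PBS) and 7 (titled PBS after DSS, not compared). The Clostridia vadinBB60 group takes 5.57% to 11.2% in the PBS libraries and 0.370% to 1.22% in the GPR15L libraries, while the larger families overlap and library 14 is set apart by its Lachnospiraceae (36.3%).

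The families higher with GPR15L were Akkermansiaceae and Sutterellaceae. Akkermansiaceae, mucin degraders represented by 1 ASV (ASV140), made up 0.0734%, 0.181%, 0.721% and 0.273% in libraries 8 to 11 and had no count in libraries 12 to 15 (edgeR adjusted p = 0.00374). No library before DSS held it either, and library 7 held 3 counts (0.00179%). The call held with each library left out and with library 7 as titled, while the mean with GPR15L fell from 0.312% to 0.176% without library 10. Sutterellaceae, Gram-negative commensals of the order Burkholderiales, made up 1.72%, 1.24%, 7.56% and 2.60% with GPR15L and 0.793%, 1.14%, 0.223% and 0.401% with PBS (edgeR adjusted p = 0.0251 for a log2 fold change of 2.84 ± 0.84 SE). The arms did not overlap, but library 10 held far more than the others: without it the mean with GPR15L fell from 3.28% to 1.85% and the call was lost (log2 fold change 1.93, edgeR adjusted p = 0.110). It was also lost without library 11, 14 or 15 (edgeR adjusted p = 0.0625, 0.0690 and 0.0545).

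The families lower with GPR15L were 1 abundant group and 5 rare ones. The Clostridia vadinBB60 group, Clostridia known almost only from sequence, made up 1.22%, 1.02%, 0.370% and 0.485% with GPR15L and 7.29%, 7.39%, 11.2% and 5.57% with PBS (edgeR adjusted p = 0.0240 for a log2 fold change of -3.12 ± 0.89 SE). Each PBS library held more than 4 times the highest GPR15L library, though the adjusted p rose to between 0.0525 and 0.0625 without library 9, 10, 11 or 14. Before DSS the group made up 0.0608%, 0.0713% and 0.1435% of libraries 1 to 3 and 2.10%, 0.352% and 0.0308% of libraries 4 to 6. That log2 fold change was -1.92 (edgeR adjusted p = 0.239). The differences after and before DSS were not told apart (edgeR's interaction test, adjusted p = 0.581). Brachyspiraceae gave the values of their phylum (edgeR adjusted p = 0.0364 for a log2 fold change of -6.38 ± 2.17 SE), although their single ASV did not pass among the ASVs. The others lay under 0.1% and are named after their values were seen. They were Saccharimonadaceae, Christensenellaceae, Anaerovoracaceae and Clostridiaceae, each with no count with GPR15L and with a mean of 0.0557%, 0.0590%, 0.0297% and 0.0137% with PBS (edgeR adjusted p = 0.0240, 0.0251, 0.0364 and 0.0364). Clostridiaceae were here Candidatus Arthromitus, the segmented filamentous bacteria that attach to the ileal epithelium. Calls of all 5 rare families were lost without library 9, among other libraries. The order Peptostreptococcales-Tissierellales was at 0, 0, 0.0239% and 0 with GPR15L and at 0.211%, 0.464%, 0.128% and 0.272% with PBS (edgeR adjusted p = 0.0373 for a log2 fold change of -4.91 ± 1.80 SE, lost without library 8, 9, 11, 13 or 15). Before DSS this order was at 0.0572%, 0 and 0.0159% in libraries 1 to 3 and at 0.511%, 0.0348% and 0.5685% in libraries 4 to 6. That log2 fold change was -3.51 (edgeR adjusted p = 0.306), and the 2 differences were not told apart (edgeR's interaction test, adjusted p = 0.791).

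Muribaculaceae and Lachnospiraceae, among the largest families, did not pass the threshold, and neither did some smaller families without overlap. Muribaculaceae made up 21.1%, 13.7%, 31.8% and 25.0% in libraries 8 to 11 and 21.3%, 21.3%, 8.36% and 19.7% in libraries 12 to 15. Lachnospiraceae made up 15.6%, 26.4%, 4.72% and 6.63% with GPR15L and 8.56%, 11.0%, 36.3% and 13.6% with PBS, and their PBS mean fell from 17.4% to 11.1% without library 14. Both overlapped between the arms, and the sign of the fitted difference of Lachnospiraceae turned without library 14 (log2 fold change -0.22 with it and 0.45 without). Rikenellaceae, the Bacteroidales family of the bile-tolerant Alistipes, made up 0.714%, 0.153%, 1.15% and 0.940% with GPR15L and 1.58%, 1.91%, 1.56% and 2.93% with PBS. Erysipelotrichaceae, rare Bacilli here, made up 0.00831%, 0.0175%, 0.0399% and 0.0262% with GPR15L and 0.102%, 0.0939%, 0.119% and 0.165% with PBS. In Rikenellaceae and Erysipelotrichaceae every GPR15L library lay below every PBS library, yet neither passed (log2 fold change -0.87 and -1.86, edgeR adjusted p = 0.534 and 0.363). The same held for Peptostreptococcaceae, at 0, 0, 0.0239% and 0 with GPR15L and 0.205%, 0.416%, 0.0869% and 0.2475% with PBS (log2 fold change -4.80, edgeR adjusted p = 0.0918).

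Of 78 genera or lowest named ranks, 11 passed (14.1%), 3 higher (3.85%) and 8 lower (10.3%). The number was 3, 4 or 6 when library 8, 9 or 14 was left out. Besides Akkermansia, the higher ones were Parasutterella, an asaccharolytic gut commensal, and Anaerotruncus, a genus of the Ruminococcaceae. Parasutterella made up 0.429%, 0.246%, 1.07% and 0.747% with GPR15L, had no count in libraries 12 to 15 and made up 0.485% of library 7 (edgeR adjusted p = 0.0201, lost without library 8 or 14). Anaerotruncus made up 0.893%, 1.29%, 0.266% and 0.318% with GPR15L and 0.0622%, 0.0819%, 0.0781% and 0.102% with PBS (edgeR adjusted p = 0.0211, lost without library 8, 9, 12, 13, 14 or 15). Of the lower genera, UCG-009 of the Butyricicoccaceae and the [Eubacterium] siraeum group, a relative of Ruminococcus, had no count with GPR15L. UCG-009 made up 0.266%, 0.174%, 0.507% and 0.217% with PBS, and the [Eubacterium] siraeum group 0.469%, 0.422%, 0.718% and 0.567%. The former was found in 3 of 3 GPR15L libraries and 2 of 3 PBS libraries before DSS, and the latter in none.

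The ASVs that differed were mostly ones with no count in the other arm. Among the 30 that were higher with GPR15L, 27 had no count with PBS, and among the 49 that were lower, 46 had no count with GPR15L. The 30 together made up 9.78%, 11.7%, 13.0% and 14.4% of counts in libraries 8 to 11 and 0.411%, 0.142%, 0.701% and 0.631% in libraries 12 to 15. The 49 together made up 0, 0.0131%, 0.126% and 0.0805% with GPR15L and 24.0%, 19.6%, 32.4% and 22.2% with PBS. These sums describe the called ASVs, which were chosen for their difference. Clostridia made up 20 of the 30 (66.7%) and 39 of the 49 (79.6%), beside 63.5% of all tested ASVs, and Bacteroidales 4 (13.3%) and 10 (20.4%), beside 21.6%. With library 8 left out, 52 ASVs passed in place of 79. Over all 282 ASVs the median log2 fold change was 0, and 124 ASVs had an unadjusted p under 0.05. The count filter used all 14 fitted libraries. Some of the 282 thus had no count in the 8 compared libraries and entered this median at 0. They also count in the percentages of the 282. With the 2 groups fitted alone the median was 0.685, so the 0 is not read as balance between the arms.

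Tested ASVs were grouped by their mean share in the arm where they were higher. Among 30 ASVs with a mean of at least 1% in the arm where they were higher, 3 were higher, 6 lower and 21 not past the threshold. Between 0.1% and 1% these numbers were 13, 27 and 60 of 100, and under 0.1% they were 14, 16 and 122 of 152. The 152 include tested ASVs with no count in the 8 libraries, which could not pass, so no trend with abundance is read. Of the 63 ASVs found in all 8 libraries, 2 were higher and 61 did not pass (edgeR); ASVs with no count in an arm, which made up most calls, cannot be among them, so nothing is read from this count. They held 80.6%, 74.3%, 84.6% and 82.6% of counts in libraries 8 to 11 and 69.3%, 70.9%, 49.1% and 67.2% in libraries 12 to 15, more in every GPR15L library than in any PBS library. The 2 that passed were ASV5, a Helicobacter, and ASV35, a Muribaculum.

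Detection also differed between the arms. The 8 libraries held 352 ASVs, of which 132 were found in both arms, 107 with GPR15L only and 113 with PBS only. Of the 107, 59 were found in a single library (0.466% of GPR15L counts), and of the 113, 45 (0.318% of PBS counts). An ASV found in a single library always belongs to 1 arm. ASVs in every GPR15L library and no PBS library numbered 18 (5.11% of those detected), and ASVs in every PBS library and no GPR15L library numbered 41 (11.6%). The 18 comprised 7 Lachnospiraceae, 4 Oscillospiraceae, 2 Bacteroidaceae, 2 Sutterellaceae and 1 each of Muribaculaceae, Butyricicoccaceae and Akkermansiaceae. The 41 comprised 11 Lachnospiraceae, 9 Oscillospiraceae, 8 Muribaculaceae, 7 of the Clostridia vadinBB60 group, 3 Ruminococcaceae and 1 each of Butyricicoccaceae, Christensenellaceae and Clostridiaceae. Among the tested ASVs, all GPR15L libraries lay above all PBS libraries in 31 (11.0%) and below them in 56 (19.9%). With library 7 counted as titled, the 18 became 11 and the 41 became 0.

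Parts of both sets had been present before DSS. Of the 18, 11 were detected in at least 1 library before DSS, with 9 of them among libraries 1 to 3, 9 among libraries 4 to 6 and 7 in both arms. Of the 41, 37 were detected before DSS, with 29 of them among libraries 1 to 3, 33 among libraries 4 to 6 and 25 in both arms. The same share over all detected ASVs was not taken, so these numbers are not read as a trait of either set. The 18 made up 6.76%, 6.52%, 8.91% and 11.6% of libraries 8 to 11. They had made up 13.8%, 10.5% and 6.04% of libraries 1 to 3 and 11.6%, 19.1% and 5.45% of libraries 4 to 6, and they made up 19.5% of library 7. The 41 made up 10.8%, 8.48%, 23.4% and 10.4% of libraries 12 to 15. They had made up 4.30%, 5.56% and 5.13% of libraries 1 to 3 and 6.10%, 4.62% and 0.00526% of libraries 4 to 6, and had no count in library 7. The labels do not say which mice were sampled both times, and time cannot be told apart from the run in the library names.

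**Figure D3:**
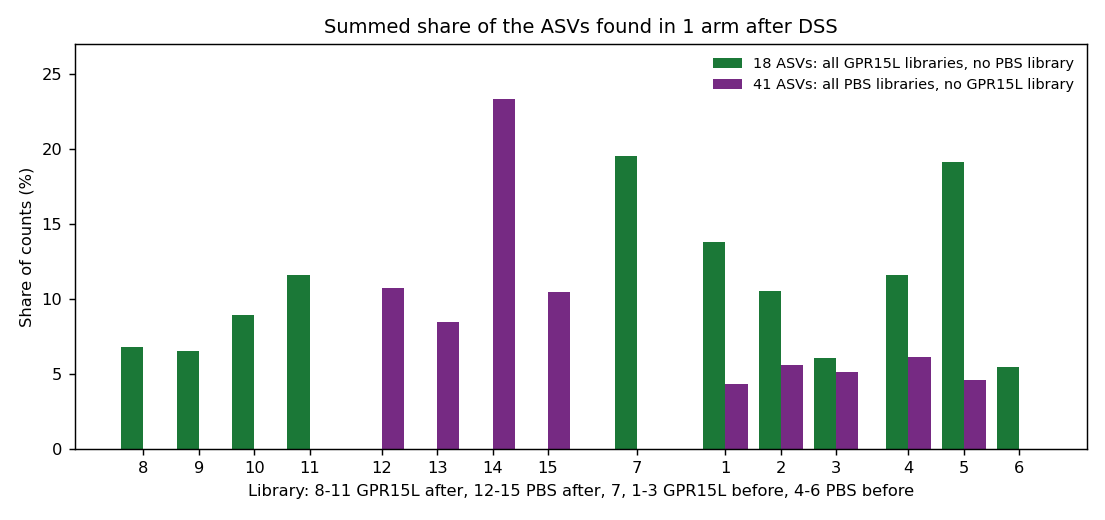
Summed share of counts in percent (vertical axis) of the 18 ASVs found in every GPR15L library and no PBS library after DSS, and of the 41 found in every PBS library and no GPR15L library, in each of the 15 libraries (horizontal axis). Before DSS both sets are present in libraries 1 to 5, the 41 fall to 0.00526% in library 6, and library 7 holds the 18 (19.5%) and none of the 41.

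Among the ASVs higher with GPR15L, a pair of Bacteroides ASVs stood out by abundance. ASV4 made up 2.56%, 2.27%, 4.25% and 5.85% of libraries 8 to 11 and had no count in libraries 12 to 15, at least 2905-fold higher (edgeR adjusted p = 3.51e-05). ASV10 made up 1.52%, 1.36%, 2.40% and 3.88% and likewise had none with PBS, at least 1783-fold higher (edgeR adjusted p = 4.04e-05). Both were present in every library before DSS and in library 7, ASV4 at 8.25%, 5.32% and 2.88% in libraries 1 to 3 and at 6.83%, 11.8% and 2.03% in libraries 4 to 6. The 2 ASVs kept nearly the same proportion wherever they occurred: ASV4 stood at 1.51 to 1.95 times ASV10 (median 1.68) in the 11 libraries that held them. ASV2 and ASV3, Bacteroides ASVs with counts in all 15 libraries, had a ratio between 0.578 and 9.89.

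The Sutterellaceae held 4 of the 30. ASV34, a Turicimonas, made up 0.217%, 0.120%, 0.860% and 0.298% with GPR15L and 0, 0, 0.0118% and 0 with PBS (edgeR adjusted p = 0.00513 for a log2 fold change of 7.65 ± 1.56 SE), and its mean with GPR15L was 0.373%, or 0.211% without library 10. It had been present in all 6 libraries before DSS, at 0.481% to 2.63%. The more abundant Turicimonas ASV7, named after its values were seen, made up 0.930%, 0.781%, 4.99% and 1.42% with GPR15L and 0.710%, 0.973%, 0.211% and 0.345% with PBS and did not pass (edgeR adjusted p = 0.0783). All 3 Parasutterella ASVs were higher and had no count with PBS. ASV96 made up 0.303%, 0.190%, 0.746% and 0.554%, and ASV151 0.122%, 0, 0.297% and 0.180% (edgeR adjusted p = 0.0182 and 0.0417). Before DSS both were found in library 6 alone. The call of ASV151 was lost without any single library other than library 9, with adjusted p between 0.0600 and 0.0880.

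Mucus-associated ASVs differed unevenly. ASV5, a Helicobacter, made up 0.596%, 1.76%, 0.616% and 0.972% with GPR15L and 0.181%, 0.0859%, 0.105% and 0.0639% with PBS (edgeR adjusted p = 0.00921 for a log2 fold change of 3.36 ± 0.79 SE). The arms did not overlap. Libraries before DSS held 1.62% to 15.7%, above each of the 8 compared libraries other than library 9. The dominant Helicobacter, ASV6, made up 4.81%, 6.60%, 3.89% and 8.94% with GPR15L and 9.96%, 10.7%, 5.27% and 9.35% with PBS and did not pass (edgeR adjusted p = 0.874). ASV1, a Mucispirillum, made up 7.65%, 15.2%, 0.794% and 5.99% with GPR15L and 3.50%, 3.28%, 5.73% and 4.24% with PBS, overlapping throughout.

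The other named ASVs higher with GPR15L were Clostridia and Muribaculaceae at lower shares. ASV99 of the Oscillospiraceae made up 0.943%, 0.566%, 0.101% and 0.0730% (mean 0.421%, or 0.246% without library 8), and ASV130, a Colidextribacter of the same family, 0.276%, 0.347%, 0.118% and 0.223%. Neither had a count with PBS (edgeR adjusted p = 0.0170 and 0.0194). Of the Lachnospiraceae NK4A136 group, ASV157 made up 0.116%, 0.445%, 0.0526% and 0.155% (mean 0.192%, or 0.108% without library 9) and ASV117 0.0997%, 1.55%, 0.190% and 0. The mean of ASV117 thus rested on library 9 (0.460% with and 0.0965% without it), and its call was lost without library 12 (edgeR adjusted p = 0.0572). ASV136, a Lachnoclostridium, and ASV191, a Lachnospiraceae without a genus, ranged from 0.0510% to 0.216% and from 0 to 0.251% with GPR15L, and the call of ASV191 was lost without library 12, 13, 14 or 15. ASV15, a Muribaculaceae without a genus, made up 0.326%, 0.0758%, 0.167% and 0.0562% and had no count with PBS (edgeR adjusted p = 0.00426), and its mean was 0.156%, or 0.0998% without library 8. ASV35, the Muribaculum found in all 8 libraries, made up 1.56%, 1.01%, 1.94% and 1.17% with GPR15L and 0.230%, 0.0559%, 0.585% and 0.567% with PBS (edgeR adjusted p = 0.0347 for a log2 fold change of 2.52 ± 0.83 SE). The arms did not overlap, but this call was lost without any single library other than library 9 (adjusted p 0.0530 to 0.0824), with TMM scaling (0.106), when scaled by total counts (0.0828) and with no count filter (0.129).

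**Figure D4:**
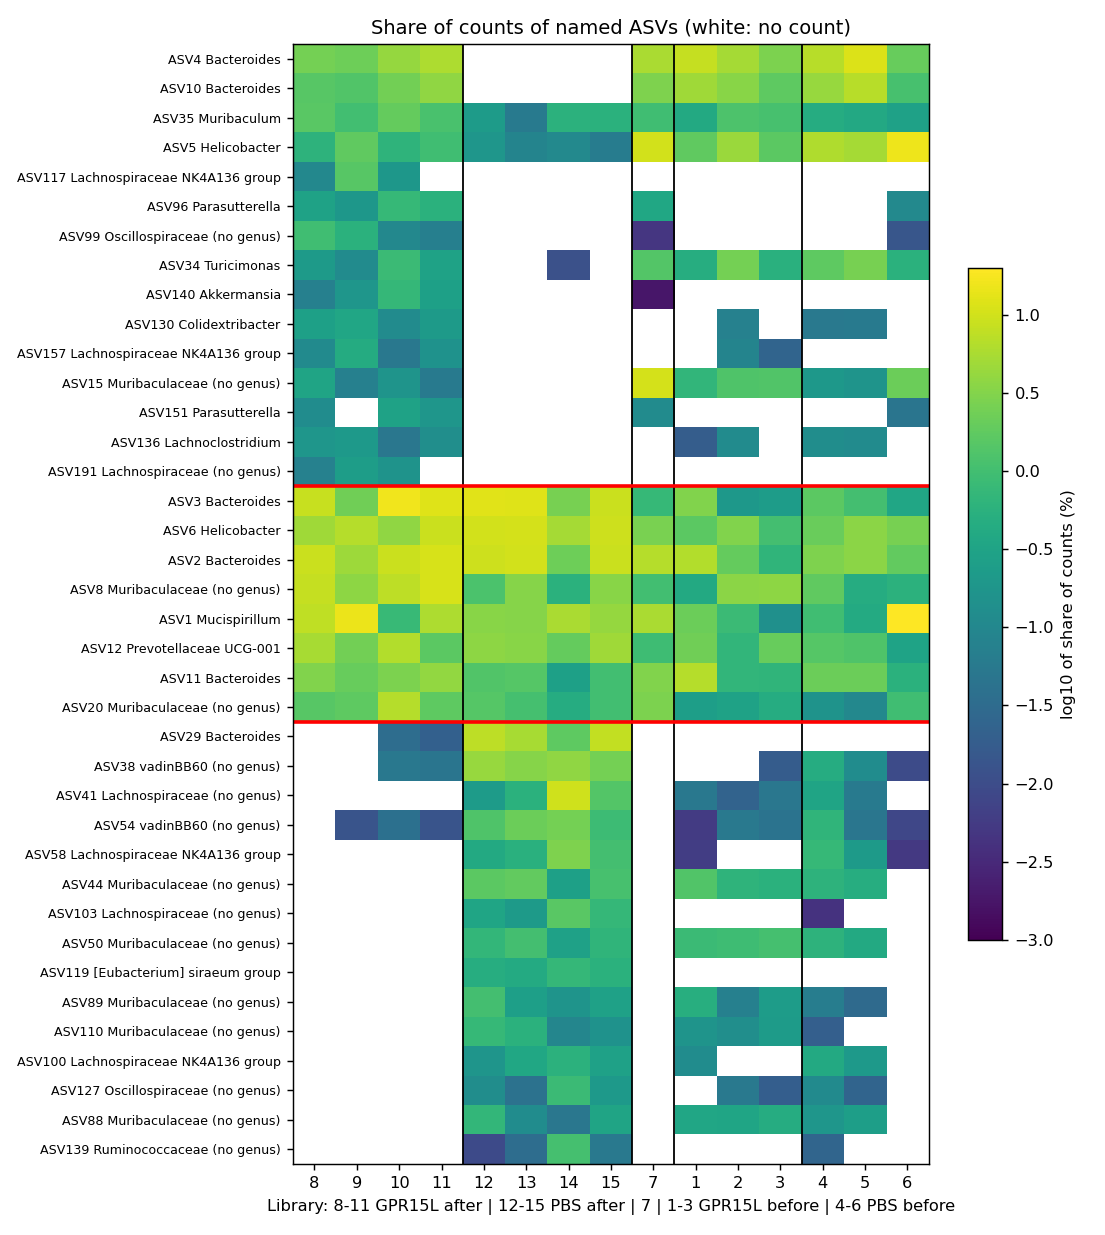
Share of counts, as log10 of percent (colour, white for no count), of the named ASVs (rows) in the 15 libraries (columns; black lines separate the groups). The top block holds ASVs higher with GPR15L, the middle block abundant ASVs that did not pass, and the bottom block ASVs lower with GPR15L. The white cells of ASV4 and ASV10 lie in libraries 12 to 15 alone, and most rows of the bottom block are white in libraries 8 to 11, 7 and 6.

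ASVs lower with GPR15L were led by another Bacteroides, ASV29. It made up 0, 0, 0.0351% and 0.0206% of libraries 8 to 11 and 7.50%, 5.36%, 1.69% and 7.93% of libraries 12 to 15 (edgeR adjusted p = 0.0141 for a log2 fold change of -8.15 ± 1.91 SE). No library before DSS and not library 7 held a count of it, so ASV29 was detected after DSS only. Its GPR15L mean was 0.0139%, or 0.00686% without library 10. The Bacteroidaceae as a family made up 25.4%, 12.9%, 35.1% and 37.5% with GPR15L and 30.9%, 29.8%, 6.82% and 27.3% with PBS.

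The Clostridia vadinBB60 group had 10 of its 13 tested ASVs lower and none higher, beside 17.4% lower and 10.6% higher over all ASVs. ASV38 made up 0, 0, 0.0526% and 0.0468% with GPR15L and 4.29%, 3.33%, 3.80% and 2.51% with PBS (edgeR adjusted p = 0.0269 for a log2 fold change of -6.57 ± 2.03 SE; 0.0509 and 0.0572 with library 8 or 12 left out). ASV54 made up 0, 0.0131%, 0.0383% and 0.0131% with GPR15L and 1.28%, 2.12%, 2.47% and 0.877% with PBS (edgeR adjusted p = 0.0160 for a log2 fold change of -6.26 ± 1.62 SE). For both, the GPR15L mean rested in part on library 10 (0.0249% and 0.0156% for ASV38, 0.0161% and 0.00874% for ASV54, with and without it). Most of the share that the group kept with GPR15L was ASV63, named after its values were seen, at 1.00%, 0.940%, 0.238% and 0.425% with GPR15L and 0.656%, 0.677%, 0.821% and 0.323% with PBS (edgeR adjusted p = 0.992).

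Of the 11 lower Lachnospiraceae ASVs, the most abundant had no count with GPR15L and were uneven among the PBS libraries. ASV41 made up 0.228%, 0.564%, 9.72% and 1.41% of libraries 12 to 15, ASV58 0.414%, 0.532%, 2.95% and 1.05%, and ASV103 0.333%, 0.220%, 1.60% and 0.732%. Library 14 was the highest each time, and without it the means fell from 2.98% to 0.735%, from 1.23% to 0.664% and from 0.721% to 0.428%, with the calls kept (edgeR adjusted p with all libraries 0.00426, 0.00426 and 0.00513). ASV100 of the NK4A136 group made up 0.175%, 0.366%, 0.588% and 0.284% (edgeR adjusted p = 0.0202).

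Lower Muribaculaceae ASVs showed the reverse order within PBS. ASV44 made up 1.68%, 1.87%, 0.276% and 1.11% of libraries 12 to 15, and ASV50 0.693%, 1.02%, 0.289% and 0.650%, with no count in libraries 8 to 11 (edgeR adjusted p = 0.00426 for each). Library 14 was the lowest for these. ASV89, ASV110 and ASV88 ranged over 0.168% to 1.03%, 0.0958% to 0.767% and 0.0516% to 0.716% with PBS and also had no count with GPR15L, with means of 0.438% for ASV89 and 0.303% for ASV88 that fell to 0.240% and 0.166% without library 12. All 5 were present in every GPR15L library before DSS: ASV44 at 1.38%, 0.619% and 0.556% and ASV50 at 0.842%, 0.930% and 1.07% in libraries 1 to 3. None of the 5 had a count in library 6 or 7.

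Among the Ruminococcaceae and Oscillospiraceae, ASV119 of the [Eubacterium] siraeum group was even across the PBS libraries, between 0.422% and 0.718%, and was found in no other library of the series (edgeR adjusted p = 0.00522). ASV139 made up 0.00942%, 0.0340%, 1.09% and 0.0543% with PBS, so that its mean of 0.296% was 0.0326% without library 14. Its call (edgeR adjusted p = 0.0259) was lost without library 8, 9 or 14 (0.0572, 0.0509 and 0.0573). ASV127 made up 0.128%, 0.0420%, 0.858% and 0.203% with PBS, with a mean of 0.308%, or 0.124% without library 14 (edgeR adjusted p = 0.0178).

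The most abundant ASVs were mostly shared. ASV3 made up 8.62%, 2.30%, 15.9% and 12.3% with GPR15L and 12.6%, 12.4%, 2.62% and 9.18% with PBS, and ASV2 9.11%, 4.63%, 9.19% and 11.0% against 9.21%, 10.3%, 2.23% and 9.05%. Both are Bacteroides and overlapped between the arms (edgeR adjusted p = 0.874 and 0.819). ASV8, a Muribaculaceae, made up 8.37%, 3.65%, 7.35% and 11.1% with GPR15L and 1.19%, 3.27%, 0.550% and 3.49% with PBS. It did not overlap but did not pass (edgeR adjusted p = 0.0699 for a log2 fold change of 2.15 ± 0.87 SE), nor did the Bacteroides ASV11 (1.99% to 3.95% against 0.274% to 1.45%) or the Muribaculaceae ASV20 (1.50% to 6.59% against 0.451% to 1.49%; mean with GPR15L 2.88%, or 1.64% without library 10). ASV12, Prevotellaceae UCG-001, made up 5.51%, 2.46%, 6.43% and 1.63% against 3.72%, 3.42%, 1.89% and 4.82%.

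To ask how far the arms differed inside a family whatever its total, ASV shares were recomputed within each of the 10 families with at least 5 tested ASVs; this was done after the data were seen. The arm accounted for most of the squared distance in 8 of them, each at the lowest exact permutation p this design allows (0.0286, or 0.0357 adjusted over the 10). R2 was 0.893 in the Clostridia vadinBB60 group, 0.858 in Sutterellaceae, 0.812 in Bacteroidaceae, 0.807 in Ruminococcaceae and 0.739 in Rikenellaceae. It was 0.692 in Oscillospiraceae, 0.633 in Muribaculaceae and 0.575 in Lachnospiraceae. Erysipelotrichaceae (0.475, exact permutation p = 0.0571, n = 4 each) and Desulfovibrionaceae (0.185, exact permutation p = 0.286, n = 4 each) did not reach it. With library 7 as titled the R2 fell to 0.251 in Bacteroidaceae and 0.0863 in Rikenellaceae (exact permutation p = 0.183 and 0.532).

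**Figure D5:**
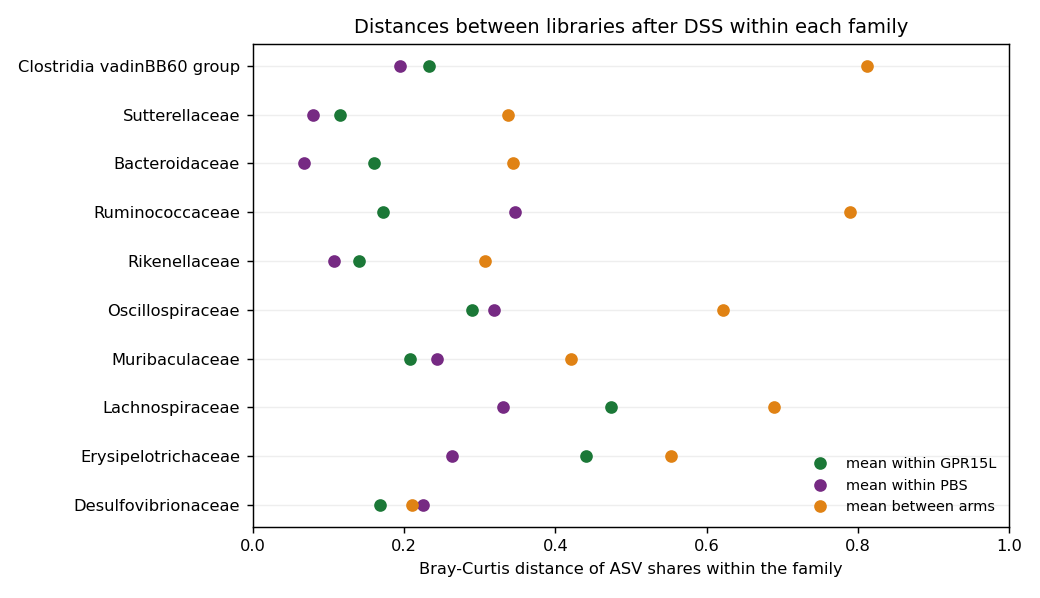
Mean Bray-Curtis distance of ASV shares within a family (horizontal axis, 0 to 1) between pairs of libraries within GPR15L, within PBS and between the arms, for the 10 families with at least 5 tested ASVs (vertical axis, ordered by R2). The mean between the arms is 0.812 in the Clostridia vadinBB60 group and 0.789 in Ruminococcaceae, well to the right of both means within the arms, and 0.211 in Desulfovibrionaceae, between them.

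In Ruminococcaceae and Rikenellaceae the total did not pass while the composition within differed. Of the Ruminococcaceae counts with PBS, 57.6% lay in ASVs with no count with GPR15L, and of those with GPR15L 4.38% lay in ASVs with no count with PBS. These counts are pooled over an arm, and library 14 held 4.11% Ruminococcaceae beside 0.783% to 1.39% in the other PBS libraries. Of the 17 tested, 3 were lower and 0 higher, with a median log2 fold change of -2.34. In Rikenellaceae none of the 5 tested passed (edgeR, median log2 fold change -5.19). Its ASV28, an Alistipes named after its values were seen, was at 0, 0, 0.0383% and 0 with GPR15L and at 0.535%, 0.508%, 0.479% and 0.565% with PBS (edgeR adjusted p = 0.0638), while ASV31, another Alistipes, overlapped.

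In the other families the calls ran both ways or one way, and are set beside the 10.6% of all tested ASVs that were higher and the 17.4% that were lower. Tested ASVs with no count in the 8 libraries enter the medians at 0. Percentages of counts in ASVs of 1 arm pool the libraries of that arm. Library 14, at 36.3% Lachnospiraceae beside 8.56% to 13.6% in the other PBS libraries, thus weighs most in the PBS value of that family. Lachnospiraceae had 14 ASVs higher and 11 lower of 100 (median log2 fold change 0), with 36.7% of their PBS counts in ASVs found with PBS only and 13.1% of their GPR15L counts in ASVs found with GPR15L only. Oscillospiraceae had 5 higher and 12 lower of 39 (median -3.69), with 36.1% and 24.8%. Muribaculaceae had 2 higher and 9 lower of 42 (median -0.15), with 20.2% and 1.07%. Bacteroidaceae had 2 higher and 1 lower of 8 (median 1.13), with 0.0226% and 20.2%. Sutterellaceae had 4 higher and 0 lower of 6 (median 7.55). Desulfovibrionaceae (6 tested) and Erysipelotrichaceae (5 tested) had no ASV past the threshold in edgeR.

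The same shares over all ASVs (10.6% higher, 17.4% lower, 28.0% in all) are the background for ecological groups, and in the 2 groups with most ASVs the calls lay near them. Bacteroidales families took 56.5% ± 19.7 (SD, n = 4) with GPR15L and 47.9% ± 19.3 (n = 4) with PBS, with 4 ASVs higher and 10 lower of 61. Clostridia families with most butyrate producers (Lachnospiraceae, Oscillospiraceae, Ruminococcaceae and Butyricicoccaceae) had 20 higher and 27 lower of 159. Other Clostridia, mainly the vadinBB60 group, took 1.04% ± 0.655 and 8.32% ± 2.27 of counts, and 12 of their 20 ASVs were lower and 0 higher (median log2 fold change -7.82). Mucus-layer taxa took 17.7% ± 9.61 and 14.2% ± 1.20 of counts, and 2 of their 7 ASVs were higher and 0 lower. Proteobacteria (Pseudomonadota), listed without mitochondria, had 4 higher and 0 lower of 9. Bacilli took 0.183% ± 0.0418 and 0.440% ± 0.145, with none of 10 past the threshold in edgeR.

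No diversity measure passed: with the log2 phylum ratio they made 4 measures, each with an adjusted exact permutation p of 0.343 (n = 4 each). At an equal depth of 48847 counts the GPR15L libraries held 177, 159, 145 and 127 ASVs and the PBS libraries 173, 179, 186 and 176, a difference of -26.5 (exact permutation p = 0.0857; -34.9 and 0.0286 without library 8, the deepest, neither adjusted). Shannon index was 3.79, 3.84, 3.45 and 3.36 with GPR15L and 3.74, 3.74, 4.15 and 3.86 with PBS (difference -0.26, exact permutation p = 0.229). Evenness differed by -0.0272 (exact permutation p = 0.314).

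Library 7 lay closer to the GPR15L libraries after DSS than to the PBS libraries its title names, with a mean Bray-Curtis distance of 0.600 against 0.729 for ASVs and 0.354 against 0.440 for families. For ASVs the same held for all 6 libraries taken before DSS, those of the PBS arm included (0.609 against 0.614, 0.649 against 0.709 and 0.703 against 0.804 for libraries 4 to 6). It held 10.0% ASV5, 10.5% ASV15, 5.73% ASV4 and 2.94% ASV10, with 95% Wilson intervals of 9.89% to 10.2%, 10.3% to 10.6%, 5.62% to 5.85% and 2.86% to 3.02%. Of the 30 higher ASVs library 7 held 11, and of the 49 lower ones 1. It held 93 ASVs in all, against 127 to 186 in each compared library. Counted as titled it left 65 ASVs, 3 genera, 1 family, 1 order and 1 phylum past the threshold, and it ended the calls (edgeR) of ASV4, ASV5, ASV10, ASV15, ASV34, ASV35, ASV38, ASV96 and ASV151 among the named ASVs, of the vadinBB60 group, Sutterellaceae, Parasutterella and Anaerotruncus, and of Spirochaetota. Akkermansiaceae remained the family past the threshold.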

How the data were processed

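Per the labels, stool DNA (QIAamp kit) gave V4 amplicons from 10 ng of template in 25 cycles, read as paired 151 bases on a MiSeq. The authors deposited raw read counts for each ASV, which only the table's name ties to DADA2; the submitters' processing notes list R 4.5.1 and limma without a role. Its filters and taxonomy database were not given in the sources used here. Of 3697 ASVs in the table, 3190 were at 0 in all libraries. Titles name Gpr15 knockouts and the series text Gpr15l.

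Counts per ASV, genus, family, order and phylum were fitted in edgeR 4.0.16 (R 4.3.3; TMMwsp, 1 mean per group over 14 libraries, at least 10 counts and 3 libraries). The fit was also run on simulated counts, from which no error rate is taken here. SE is the absolute log2 value over the square root of F. The 282 tested ASVs held 99.4% of counts in the 8 libraries. Distances and diversity used exact permutation over all 70 splits. Labels of replicates do not say whether mice shared a cage. Named taxa were those with an adjusted p under 0.05 whose mean reached 0.1% in either arm (the 15 largest ASVs each way) and the 10 most abundant ASVs. Members and lists were chosen with earlier results of these data known. Alternatives were TMM, total counts, ASV-table factors, DESeq2 1.42.0, limma 3.58.1 voom, the newer quasi-likelihood method, 2 other filters, the 2 groups alone, library 7 as titled, other distances and each library left out; leaving out libraries 6 and 14 together was added after seeing the data.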

Additional observations from a re-analysis of the deposited data

Results flagged for a closer look

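Among 138 groups of 4 libraries, 16 held a library far from the other 3 by Dixon's test. Groups at 0 in all 4 libraries are among the 138 but cannot be flagged. Chance alone gives about 1 group of 20 for independent, normally distributed values. A group with counts in only 1 library is always flagged, so the 16 are not set against that rate. With PBS, library 14 was the one apart in ASV34 (0.0118%), ASV41 (9.72%), ASV139 (1.09%), ASV2 (2.23%), Bacteroidaceae (6.82%), Muribaculaceae (8.36%), Bacillota (65.1%), Bacteroidota (19.1%), their log2 ratio (1.77) and the share of counts in ASVs found with PBS only (26.3%). Library 12 was apart in ASV89 (1.03%). With GPR15L, library 9 was apart in ASV117 (1.55%), library 8 in Brachyspiraceae (0.00623%), and library 10 in ASV20 (6.59%), Peptostreptococcales-Tissierellales (0.0239%) and Pseudomonadota (8.22%).

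The difference between the arms after DSS departed from that before DSS by edgeR's interaction test in 21 of 77 named taxa. Most of the 77 were named because they passed the threshold after DSS, and that arm difference is part of the interaction. No share over all tested taxa was taken, so the 21 are not read as an excess. The 21 also hold the same bacteria at several ranks, among them Parasutterella with its ASV96 and ASV151. The fitted log2 values depend on the prior count where a group has no count, and are no bounds. They were positive for ASV4 (15.0), ASV10 (14.3), ASV5 (5.46), ASV96 (20.5), ASV99 (17.3), ASV34 (8.13), ASV15 (10.4), ASV151 (17.9) and Parasutterella (21.2). They were negative for ASV41 (-12.9), ASV44 (-14.9), ASV50 (-14.1), ASV89 (-15.2), ASV110 (-16.7), ASV88 (-12.7), UCG-009 (-11.2) and Brachyspirales (-9.17). Christensenellaceae and their order Christensenellales gave -11.8, and Clostridiaceae and Clostridiales -13.2.

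In library 7, which entered no comparison, 5 families made up at least 1% of counts and stood above all 8 compared libraries: Muribaculaceae (36.7%), Peptostreptococcaceae (5.23%), Tannerellaceae (4.23%), Selenomonadaceae (2.94%) and Desulfovibrionaceae (1.19%).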

How the results depend on the processing

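No paired analysis was possible, since the labels match no mouse between the arms or between the times before and after DSS. The fit thus treated its 14 libraries as independent. ASVs past the threshold numbered 52 to 69 with a library left out, and 109 (52 higher, 57 lower) with the 2 groups fitted alone. Genera numbered 3 to 11, and 7 with a filter at a mean share of 0.1%, 18 with the 2 groups fitted alone and 3 with library 7 as titled. Families numbered 1 to 8, and 3 with that filter, 1 with library 7 and 5 with the factors of the ASV table. Orders numbered 4 to 8, and 4 with TMM, 3 with that filter, 1 with library 7 and 5 without libraries 6 and 14. Phyla numbered 1 to 2, and 4 with DESeq2, 0 with the newer quasi-likelihood method or that filter, and 1 with library 7; in the main fit 3 phyla had an unadjusted p under 0.05. R2 passed with Aitchison and Jaccard distance for genera (0.619 and 0.656), families (0.592 and 0.637) and orders (0.618 and 0.689), and with Aitchison for phyla (0.561). The difference in ASVs at equal depth ranged over -34.9 to -18.1. R2 within Erysipelotrichaceae ranged over 0.392 to 0.643, past the threshold without library 10 or 11. With library 7, R2 was 0.251 within Bacteroidaceae and 0.0863 within Rikenellaceae, and ASVs of 1 arm alone numbered 11 and 0.

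Signs turned, as log2 fold changes and mostly near 0, for taxa that did not pass, and for ASV5 (-0.99) and ASV15 (-3.49) with library 7. With a library left out the ranges were -0.057 to 0.78 for ASV3, -0.080 to 0.71 for ASV12, -0.055 to 0.55 for Helicobacteraceae, -0.55 to 0.45 for Lachnospiraceae, -0.42 to 0.36 for Oscillospiraceae, -1.02 to 0.13 for Ruminococcaceae, -0.58 to 0.48 for Bacillota, -0.078 to 0.47 for Bacteroidota and -0.18 to 0.65 for Campylobacterota. TMM turned ASV3 (-0.054), ASV12 (-0.024) and Bacillota (-0.15). Total counts turned Helicobacteraceae and Campylobacterota (-0.0041 each) and Bacillota (-0.77). DESeq2 turned Lachnospiraceae (0.011), Oscillospiraceae (0.029), Bacillota (-0.57) and Campylobacterota (-0.065). Voom turned Oscillospiraceae (0.0022) and Bacillota (-0.28). The filter at 0.1% turned Bacillota (-1.24), Bacteroidota (-0.029) and Campylobacterota (-0.38). The 2 groups alone turned ASV6 (0.23), Bacillota (-0.66) and Campylobacterota (-0.17), and the factors of the ASV table Bacillota (-0.53). Library 7 turned Lachnospiraceae (0.074) and Oscillospiraceae (0.14). Leaving out libraries 6 and 14 turned Lachnospiraceae (0.45), Oscillospiraceae (0.36), Ruminococcaceae (0.13), Bacillota (-0.038) and Bacteroidota (-0.078). Where no construction of the alternative shows it, the cause was not tested.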
